A study of Mus musculus with 2 samples.

Results

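Interleukins are secreted proteins through which white blood cells, and cells that they contact, signal to each other, and each acts through receptor chains on the surface of the receiving cell. The 82 genes described here are the protein-coding genes of the GENCODE mouse annotation (release 21, on GRCm38, the build that mm10 names) whose symbols begin with Il and a digit, out of 21911 protein-coding genes in all. By known role, 37 encode ligands, 40 encode receptor chains or close relatives of them, 4 encode antagonists or secreted binding proteins (Il1f5, Il1rn, Il18bp and Il22ra2), and Il4i1 encodes an enzyme. H3K27me3, a trimethylated lysine of histone H3 laid down by Polycomb repressive complex PRC2 and found over silent genes, was mapped by ChIP-seq in the MEL cell line, an immortalized mouse line that the labels describe as a leukemia line and a K562 analog. The series holds 1 group of 2 biological replicates of this line, with no treatment, genotype or other condition in the labels and with age and sex not recorded. Every comparison is therefore between genes or between replicates, no test over samples exists, and the labels do not state if separate cultures were used, so the spread between replicates may be technical.

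Most interleukin genes are used by a few kinds of immune or barrier cells and are shut in others, including cells of the red lineage from which MEL derives. The ligands fall into families that share receptor chains: the IL-1 family signals through receptors with an intracellular TIR domain, the IL-17 family through receptors of its own type, and most others through JAK kinases and STAT factors, by way of the common gamma chain (Il2rg), the common beta chain, gp130 (Il6st) and its relatives, or the receptors of the IL-12 and IL-10 families. H3K27me3 is known to lie over several cytokine genes in T cells that do not make the cytokine.

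Replicate 1 had 70901 peaks covering 16.1 Mb on chromosomes 1 to 19, X and Y, and replicate 2 had 106995 peaks covering 23.9 Mb. The pooled list, called on both replicates together, had 69721 peaks, and the replicated list, a subset of the pooled list that the authors derived with the help of both replicates' lists, had 38298 peaks covering 0.477% of the genome. Because of this derivation, agreement between the lists is not separate support. Read counts are not part of these lists, depth is therefore unknown, and absence of a peak does not show absence of the mark. A peak list of a silencing mark is no direct test of cell identity: replicated peaks lay within 1 kb of the start of 1 of 25 erythroid marker genes, 3 of 6 myeloid, 1 of 7 T-cell, 0 of 5 B-cell and 0 of 4 mast-cell or basophil marker genes, against 3% of all protein-coding genes.

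At 10 of the 82 interleukin genes (12.2%) a replicated peak lay within 1 kb of the gene start, against 3% of all protein-coding genes. The ligands among them were Il10, Il24, Il18, Il33, Il27, Il25 and Il17d, and the receptor genes were Il10ra, Il6ra and Il7r. A peak was counted where it overlapped the window of 1 kb on each side of the outermost annotated start by at least 1 bp. In the wider window of 5 kb on each side, 21 of the 82 held a peak of the replicated list (25.6%), against 10.4% of all genes. Inside the gene body, from annotated start to end, 30 of the 82 had one (36.6%), against 11.5% of all genes. Most of these peaks were weak calls, as were most replicated peaks anywhere, of which 10.87% had a −log10 q of at least 2. The median −log10 q was 0.98 over the 15 start peaks of interleukin genes and 0.83 over all replicated peaks. At a −log10 q of at least 2, start peaks were left at 2 of the 10 start-marked genes, Il6ra and Il18. That is 2.44% of the 82, against 0.589% of all genes. Body peaks were left in 5 of the 30 body-marked ones, which is 6.1% of the 82, against 3.35% of all genes. The median distance from the start to the nearest replicated peak was 24769.5 bp for interleukin genes and 80344 bp for all genes.

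Sequences under 5 of these peaks show how differently composed the marked places were. They are given 5′ to 3′ on the strand of the gene, from the GRCm38 (mm10) reference, with every CG dinucleotide in capitals (the letters CG read the same on both strands), and they were chosen for a pair of ligand genes of 1 cluster (Il10 and Il24), for a receptor of IL-10 (Il10ra), for a peak that reached the start of its gene (Il17d) and for the start peak with the highest −log10 q among receptor genes (Il6ra). Annotated untranslated bases were left out, as were the 26 bases of the Il10ra peak upstream of the gene. At most the 300 bases nearest the start were kept. Except at Il10, the stretches and their CG values are therefore for parts of peaks.
Il10, chr1:131019413-131019631, plus strand, upstream: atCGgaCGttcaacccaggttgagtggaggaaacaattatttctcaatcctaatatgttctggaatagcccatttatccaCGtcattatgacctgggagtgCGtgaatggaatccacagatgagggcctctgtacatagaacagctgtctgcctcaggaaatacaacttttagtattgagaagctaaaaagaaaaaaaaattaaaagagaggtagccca
Il24, chr1:130887698-130887997, minus strand, upstream: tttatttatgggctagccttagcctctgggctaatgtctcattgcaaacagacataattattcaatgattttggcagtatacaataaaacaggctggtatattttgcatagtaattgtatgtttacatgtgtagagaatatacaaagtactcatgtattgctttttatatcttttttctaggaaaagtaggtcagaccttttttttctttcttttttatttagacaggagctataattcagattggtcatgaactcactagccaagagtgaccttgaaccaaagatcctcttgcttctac
Il10ra, chr9:45268881-45269072, minus strand, coding start and intron: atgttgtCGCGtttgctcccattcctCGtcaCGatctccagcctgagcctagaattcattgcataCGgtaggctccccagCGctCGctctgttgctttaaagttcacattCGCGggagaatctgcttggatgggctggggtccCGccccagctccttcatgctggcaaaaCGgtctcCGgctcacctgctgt
Il17d, chr14:57524477-57524776, plus strand, upstream: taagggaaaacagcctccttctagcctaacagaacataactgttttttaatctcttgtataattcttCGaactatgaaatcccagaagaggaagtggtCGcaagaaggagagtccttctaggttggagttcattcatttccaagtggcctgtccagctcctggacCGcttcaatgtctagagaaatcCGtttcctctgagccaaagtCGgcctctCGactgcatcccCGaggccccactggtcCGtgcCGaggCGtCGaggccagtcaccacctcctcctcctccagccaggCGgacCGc
Il6ra, chr3:89913694-89913993, minus strand, upstream: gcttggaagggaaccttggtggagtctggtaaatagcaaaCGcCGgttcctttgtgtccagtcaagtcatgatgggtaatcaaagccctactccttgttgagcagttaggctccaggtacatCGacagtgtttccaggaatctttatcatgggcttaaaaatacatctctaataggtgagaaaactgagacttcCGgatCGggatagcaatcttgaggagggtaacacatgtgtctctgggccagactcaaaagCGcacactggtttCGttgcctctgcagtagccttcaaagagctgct
The Il10ra stretch held 6.25 CG per 100 bases and the Il17d stretch 4.33, the Il6ra stretch 2.33 and the Il10 stretch 1.83, and the Il24 stretch held 0 CG. These 5 do not stand for the start peaks as a set. Among those not printed, values ran from 0 at Il25 to 2.33 in another Il10ra peak, with 0.446 at Il7r, 0.704 at Il27 and 1.16 at Il33. The median was 0.699 CG per 100 bases over all 38298 replicated peaks, of which 84.6% held at least 1 CG. It was 2.33 over 32851 RefSeq promoters of GRCm38.p6, each of 300 bases, of which 94.6% held at least 1.

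Il10 encodes an anti-inflammatory cytokine. Replicated peaks covered 546 bases within 1 kb of its start (chromosome 1, 131019845, plus strand), the pooled list 773, replicate 1 covered 357 and replicate 2 covered 1035. The peak printed above lay upstream, from position -432 to -214 relative to the start, and a second replicated peak lay in an intron, from position 494 to 820. Both replicates had a peak over the intronic one. At the upstream one replicate 2 had a peak and replicate 1 had none, its own upstream peak running from -844 to -705. Peaks covered 1467 of the 5130 bases of the gene body (28.6%) in the replicated list, with 802 in replicate 1 and 1760 in replicate 2.

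Il24, Il20 and Il19 encode cytokines of the IL-10 family and lie beside Il10 on the opposite strand. Within 5 kb of the start Il24 led all 82 genes in the replicated list, with 3404 bases covered, and in replicate 2, with 3607. Replicate 1 covered 1547 bases there, fewer than at Il10ra (2636), Il18 (2406) and Il5 (1989). Its start peak, printed above, lay wholly upstream. Within 1 kb of the Il24 start, replicated peaks covered 311 bases and replicate 2 covered 654, while replicate 1 had 0, so this gene was counted as marked at the start although 1 replicate's own list was empty there. Il19 had no replicated peak within 1 kb, with 409 bases in replicate 2 and 0 in replicate 1, yet 1693 bases within 5 kb (949 in replicate 1 and 2479 in replicate 2). Il20 had no peak within 1 kb of its start in any of the 4 lists, and 317 bases within 5 kb. Across the 142901 bp from the end of Il24 to the end of Il10 (chromosome 1, 130882074 to 131024974) there were 33 replicated peaks covering 8.81%. Replicate 1 covered 7.82% of this stretch and replicate 2 covered 13.4%, against 0.448% and 0.734% of the whole of chromosome 1, where the replicated list covered 0.353%. Peaks were not even along it: the interval from Il24 to Il20 was covered over 16.8%, that from Il20 to Il19 over 0% and that from Il19 to Il10 over 7.69% in the replicated list. The marking did not stop at the genes, with 7.72% of the 50 kb beyond Il24 and 2.37% of the 50 kb beyond Il10 covered. Il22, a family member that acts on epithelia and lies on chromosome 10, had no peak in any list.

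**Figure D1:**
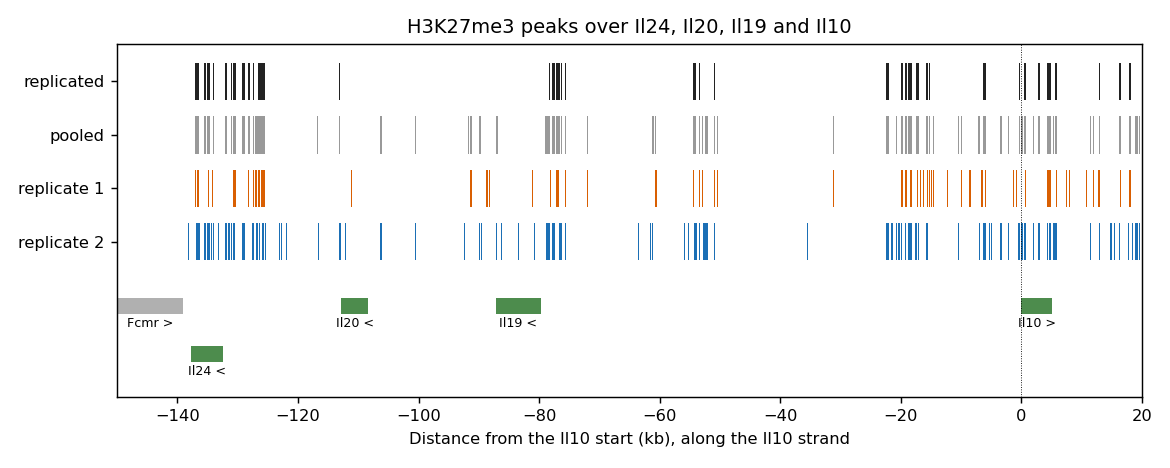
Peaks of the 4 lists (dark and coloured blocks, 1 row each) along the Il24 to Il10 cluster, by distance in kb from the Il10 start along the Il10 strand; green bars are interleukin genes, grey bars other protein-coding genes and the arrowheads give the strand. Peaks gather around Il24, beside Il19, between Il19 and Il10 and over Il10, and the interval between Il20 and Il19 holds none in the replicated list.

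Among receptors of this family, Il10ra, the binding chain for IL-10, carried the most marking. Within 1 kb of its start (chromosome 9, 45269149, minus strand) replicated peaks covered 1571 bases, replicate 1 covered 1183 and replicate 2 covered 1063. This was the highest of all 82 genes, and 4 replicated peaks made it up, from position -993 to 1494 relative to the start, 1 of which spanned the start, with 144 bases in an exon. Over the body, 4893 of 15313 bases were covered (32.0%), with 5386 in replicate 1 and 3606 in replicate 2. Joined within 3 kb, the peaks formed a domain of 15778 bp that ended inside the gene at its far end and held no other protein-coding gene. These peaks were of middling strength: −log10 q was 0.53 or 0.98 at the 4 start peaks, where the median of all replicated peaks was 0.83. The second chain Il10rb and the IL-20 receptor chain Il20rb had no peak in any list, and Il20ra, the other chain of that receptor, had a lone replicated peak of 325 bases in its body that overlapped none of replicate 1's. Of the 11 genes of the IL-10 family 3 had a replicated peak at the start (27.3%, against 3% of all genes) and 6 in the body (54.5%, against 11.5%).

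**Figure D2:**
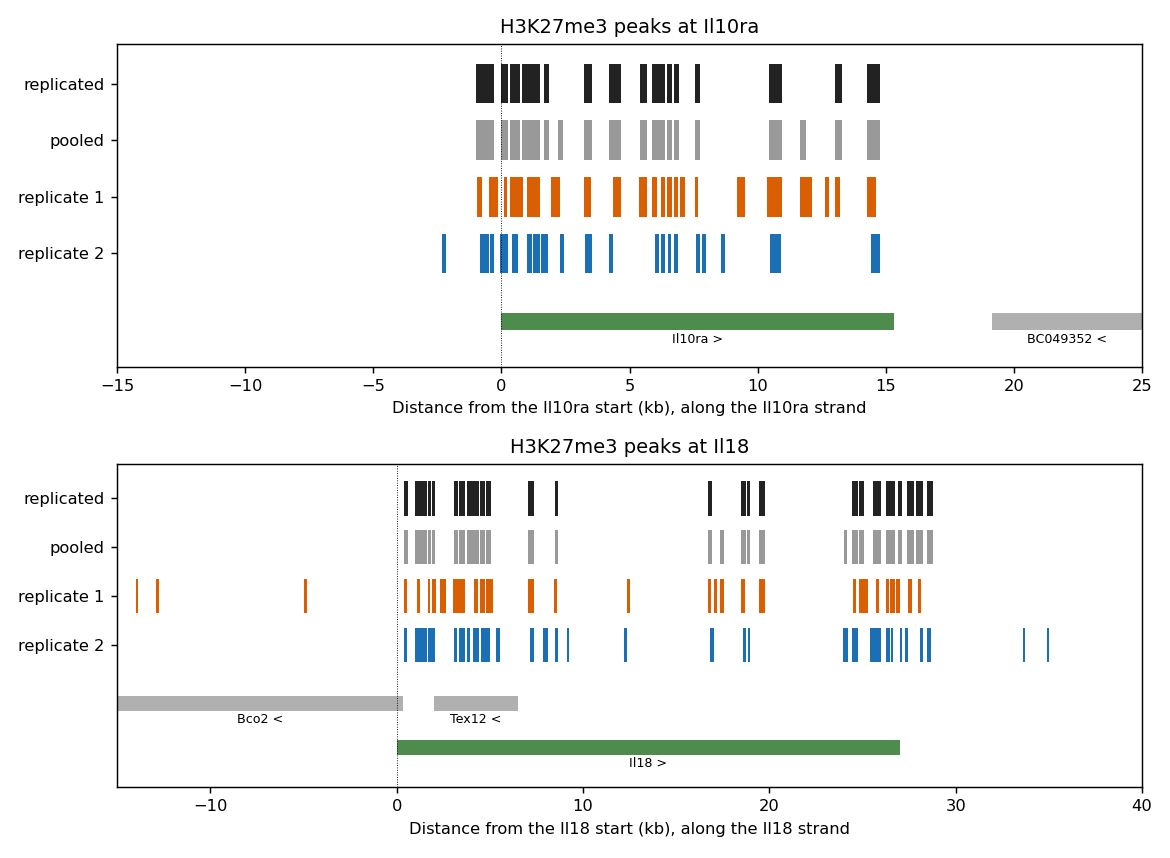
Peaks of the 4 lists at Il10ra (upper panel) and Il18 (lower panel), by distance in kb from the start along the strand of each gene; green bars are the interleukin genes and grey bars other protein-coding genes. At Il10ra peaks run from 1 end of the gene to the other in both replicates, and at Il18 they lie in 3 groups, after the start, inside the gene and around its end.

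In the IL-1 family 2 of 20 genes had a replicated peak at the start (10%, against 3% of all genes), Il18 and Il33. Il18, an inducer of interferon gamma, had the most body bases covered of all 82 genes: 5982 of 27014 bases (22.1%), with 5563 in replicate 1 and 5862 in replicate 2. Within 1 kb of its start (chromosome 9, 50554827) there were 213 bases, 167 in replicate 1 and 224 in replicate 2. The start peaks lay in an intron, and the second of them, from position 996 to 1636, had the highest −log10 q of any start peak of these genes in the replicated list (2.52). The start of Bco2 lies 354 bp from that of Il18 on the opposite strand and Tex12 lies inside Il18, so peaks there cannot be assigned to 1 gene. Il33, a nuclear alarmin, was marked at the start by the edge of a peak, with 23 bases in the replicated list, with 0 in replicate 1 and 18 in replicate 2. Deeper in Il33 a single replicated peak of 1076 bp (chromosome 19, 29950956 to 29952031) had 1002 bases covered in replicate 1 and 668 in replicate 2.

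Over the whole IL-1 family, 12 of 20 genes (60%) had no peak in any list, either in the body or within 5 kb of the start. The share over all genes was 69.6%. Within 5 kb of the start 2 of the 20 genes, Il18 and Il33, had a replicated peak (10%), close to the 10.4% of all genes. Of the 9 receptor genes 3 had a replicated body peak (33.3%, against 11.5% of all genes). By bases, 0.0197% of the receptor bodies was covered, against 0.524% over all genes, a sum that includes the giant genes Il1rapl1 and Il1rapl2. The 6 neighbouring ligand and antagonist genes on chromosome 2 (Il1f8, Il1f9, Il1f6, Il1f5, Il1f10 and Il1rn, 198334 bp) held 0 replicated peaks, 0 pooled peaks and 0 peaks of replicate 1. Replicate 2 had 1 peak there, of 140 bp, within 1 kb of the start of Il1f9. Chromosome 2 as a whole was covered over 0.667% in the replicated list. Il1a and Il1b, the founding ligands, had no replicated peak in the body or within 5 kb, but 3 replicated peaks covering 2.38% lay in the 54597 bp between them. The 6 receptor genes on chromosome 1 from Il1r2, a decoy receptor, to Il18rap, the accessory chain for IL-18, spanned 477627 bp of which 0.128% was covered in the replicated list, with 0.512% in replicate 1 and 0.674% in replicate 2. Il1rapl1 and Il1rapl2, relatives of the accessory chain that act at synapses, span 1374776 and 1276339 bp: Il1rapl1 had no peak in any list and Il1rapl2 had 140 body bases in replicate 1 and 779 in replicate 2.

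Of the 11 IL-17 family genes 2 had a replicated start peak (18.2%, against 3% of all genes), both ligands on chromosome 14. The Il17d peak ran from position -467 to 62 relative to the start (57524777), with 530 bases in the replicated list, with 250 in replicate 1 and 682 in replicate 2 within 1 kb. Il25, which drives type 2 responses, had an intronic peak of 273 bases, with 187 in replicate 1 and 330 in replicate 2. Both replicates had a peak within 1 kb of each of these starts, and that of replicate 2 reached the Il17d start itself. Il17a and Il17f, the cytokines that give Th17 cells their name, had no peak in any list, nor had Il17b and Il17c or the shared receptor chain Il17ra. Among the other receptors Il17re, for IL-17C, had 1165 bases in its body (1316 in replicate 1 and 969 in replicate 2), and Il17rd, a regulator of FGF signalling, had 2129 (2713 and 3871 in replicates 1 and 2) but no replicated peak within 5 kb of its start.

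The genes that signal through gp130 or its close relatives included 2 of 10 with a replicated start peak (20%, against 3% of all genes), Il27 and Il6ra. Il27 encodes a subunit of IL-27, and an intronic peak covered 284 bases in the replicated list, with 292 in replicate 1 and 496 in replicate 2. Il6ra, the alpha chain for IL-6, had its peak upstream, from position -952 to -498 relative to the start (chromosome 3, 89913196, minus strand), and all 4 lists had it: 455 bases in the replicated and pooled lists, 457 in replicate 1 and 394 in replicate 2. Its −log10 q was 2.03 in the replicated list, with 3.05 in replicate 1 and 2.22 in replicate 2. Il6ra had no replicated or pooled peak in its body, and the antisense gene Gm42809 starts 280 bp from the Il6ra start. All 4 ligands of this group (Il6, Il11, Il27 and Il31) had replicated peaks in the body, against 11.5% of all genes. Il6, the acute-phase cytokine, had the most in the replicated list, with 702 of 6868 bases (10.2%), all exonic, and 1102 in replicate 1, but the fewest of the 4 in replicate 2, with 416, where Il11 had 1364. The gp130 gene itself, Il6st, and its neighbour Il31ra had no body peak in any list.

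Common gamma chain cytokines, their receptors and close relatives, which lymphocytes rely on, had 1 of 17 genes marked at the start (5.88%, against 3% of all genes). It was Il7r, which encodes the alpha chain for IL-7, and 1 gene of 17 says little about the family. Its replicated peak covered 166 bases within 1 kb, against 267 in replicate 1 and 290 in replicate 2, and lay in an intron with a low −log10 q of 0.11. Inside the bodies 6 of the 17 had a replicated peak (35.3%, against 11.5% of all genes). Il2rb, a chain shared by IL-2 and IL-15, had 1546 of 16016 bases covered (9.65%), with 1513 in replicate 1 and 1238 in replicate 2, although no replicated or pooled peak lay within 5 kb of its start. Il2ra, the alpha chain for IL-2, had 1421 body bases and no replicated start peak, while the pooled list covered 314 bases at its start, replicate 1 covered 140 and replicate 2 covered 330. Il2, the T-cell growth factor, had 248 body bases, in a peak that the gene Adad1 also overlaps, so it cannot be assigned to 1 gene. Within 1 kb of the Il2 start there were 140 bases in replicate 1 and 0 in replicate 2. The common gamma chain gene Il2rg had no peak in any list.

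On chromosome 11 the type 2 cytokine cluster was split. Il4 and Il13, the signature cytokines of type 2 helper T cells, had no peak in any list, and none lay in the 12654 bp between them. Il5, the growth factor of eosinophils, had 1675 bases covered within 5 kb of its start in the replicated list, with 1989 in replicate 1 and 2509 in replicate 2. Its replicated peaks lay upstream, with 0 bases in the body. Within 1 kb of the Il5 start the pooled list had 318 bases, replicate 1 had 140 and replicate 2 had 462, but the replicated list had 0. The 3 genes together spanned 122125 bp with 1.37% covered, against 1.86% of that chromosome. The 50 kb beyond Il5 had 8.02% covered and the 50 kb beyond Il4 had 0%. Il3 and Il9r, also on this chromosome, had no peak in any list, and of the 6 interleukin genes there 0 had a replicated start peak, against 6.54% of all genes on it. Il12b, which encodes the p40 subunit shared by IL-12 and IL-23, had 863 body bases (1135 in replicate 1 and 1997 in replicate 2), and a start peak in replicate 2 alone.

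In the replicated list the remaining neighbouring pairs were covered less than the Il10 cluster, while in replicate 1 the first pair given here was covered more. Il17re and Il17rc, both receptor genes, spanned 24657 bp with 4.72% covered (8.17% in replicate 1 and 6.43% in replicate 2), all of it within Il17re in the replicated list. Il2ra and Il15ra, the alpha chain for IL-15, spanned 91511 bp with 1.55% covered, while the 50 kb before Il2ra had 7.12%. Il2 and Il21 had 1.38% of 112114 bp covered, of which 1080 of 1549 bases lay between them. Il12rb2 and Il23r, receptor chains for IL-12 and IL-23, had 0.494% of 200538 bp, close to the 0.49% of chromosome 6. Il4ra and Il21r, receptor chains for IL-4 and IL-21, had 0.238% of 81451 bp, below the 0.307% of chromosome 7. Of 13 such clusters 10 held a replicated peak, and the Il17a and Il17f pair, the Il1f8 to Il1rn row and the Il6st and Il31ra pair held none. No like count was made over other stretches of these lengths, so the 10 cannot be read as more or fewer than elsewhere. Of the 4 antagonists and binding proteins 0 had a start peak in the replicated list, against 3% of all genes. Il22ra2, the soluble binding protein for IL-22, alone had a body peak in that list, of 176 bases (379 in replicate 1 and 918 in replicate 2).

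Ligand genes had a replicated start peak at 7 of 37 (18.9%) and receptor genes at 3 of 40 (7.5%). With −log10 q of at least 2 the classes did not differ in this way, with 1 ligand (2.7%) and 1 receptor (2.5%), against 0.589% of all genes. Replicate 1 gave 18.9% of ligands and 12.5% of receptors, and replicate 2 gave 35.1% and 15%. In all genes the share was 4.46% in replicate 1 and 6.28% in replicate 2. In the bodies the classes lay closer: 15 of 37 ligand genes (40.5%) and 14 of 40 receptor genes (35%) had a replicated peak. By bases, 2.63% of the ligand bodies and 0.363% of the receptor bodies were covered, a figure that rests on the giant genes Il1rapl1 and Il1rapl2, without which the receptors came to 1.01%. Over all genes 0.524% was covered. Ligand genes are mostly short, and among genes with bodies of 10 to 50 kb the start share was 3 of 10 ligands, 3 of 25 receptors and 3.14% of all genes. No test was attached to these counts, in which some genes, such as Il10 and Il24, lie in the same cluster.

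**Figure D3:**
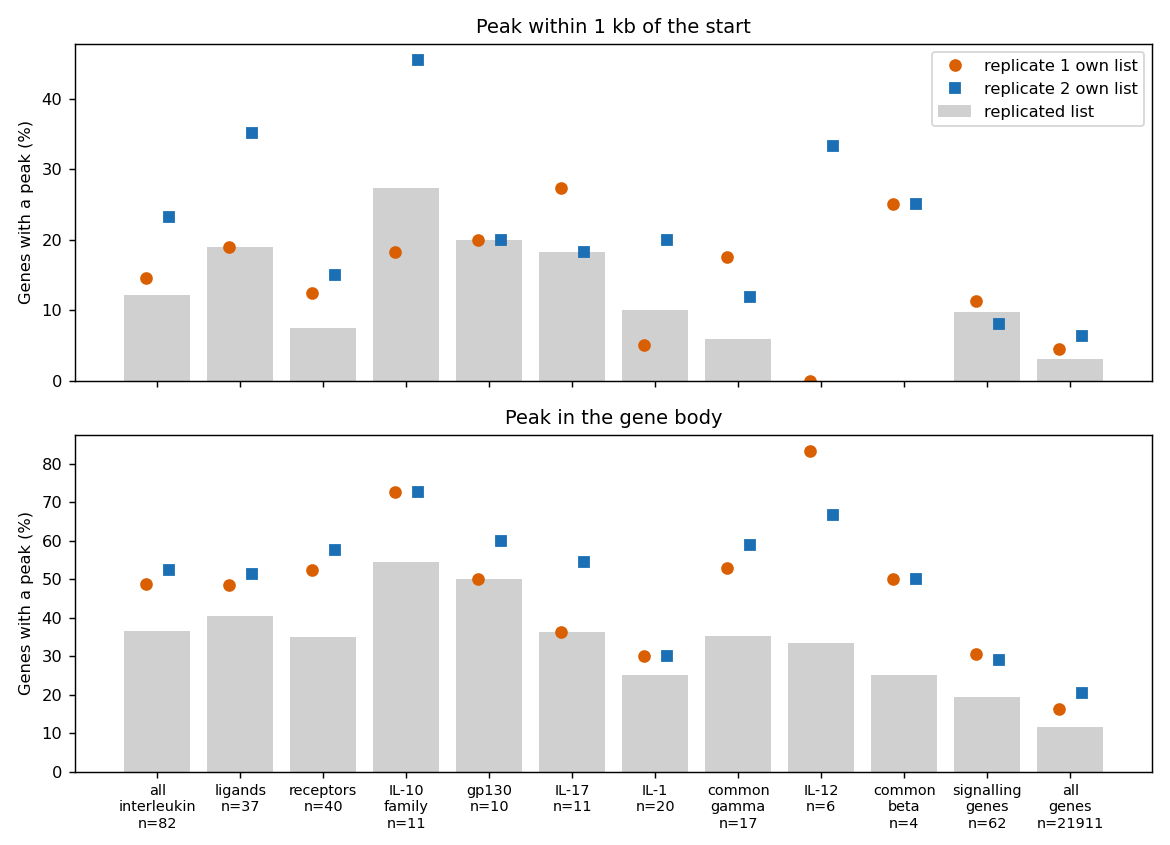
Share of genes (%) with a peak within 1 kb of the start (upper panel) and in the gene body (lower panel), for all 82 interleukin genes, their classes and families, the signalling genes and all protein-coding genes. Grey bars are the replicated list, orange circles replicate 1 and blue squares replicate 2; the bar of the interleukin genes reaches 12.2% at the start and that of all genes 3%.

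The replicates marked overlapping sets of interleukin genes, and replicate 2, with the longer list, marked more. At the start replicate 1 marked 12 and replicate 2 marked 19, with 10 in common, which is 83.3% of those of replicate 1 and 52.6% of those of replicate 2 (70.4% and 50.1% among all genes). Il2 and Il17re were marked by replicate 1 alone. Replicate 2 alone marked Il24, Il33, Il19, Il1f9, Il1a, Il22ra1, Il12rb2, Il34 and Il12b. The last 6 of these, each with a peak near the start in that list alone, had between 140 and 314 bases there. The pooled list marked 14 starts (17.1%, against 4.48% of all genes), adding Il19, Il2ra, Il17re and Il5 to those of the replicated list. Within 5 kb replicate 1 marked 28 genes (34.1%) and replicate 2 marked 35 (42.7%), against 15.7% and 19.8% of all genes. In the body they marked 40 (48.8%) and 43 (52.4%), against 16.4% and 20.4%. Across the 82 genes, which are not replicates, the bases within 5 kb in 1 replicate and the other, both called against the same control, gave 0.895 (Pearson's r) and 0.84 (Spearman's rho); 45 genes were at 0 in both, replicate 2 was higher in 29 and replicate 1 in 8. In all, 34 of the 82 genes (41.5%) had no peak in the body or within 5 kb of the start in any list, against 69.6% of all genes, with 15 of 37 ligands and 15 of 40 receptors among them.

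**Figure D4:**
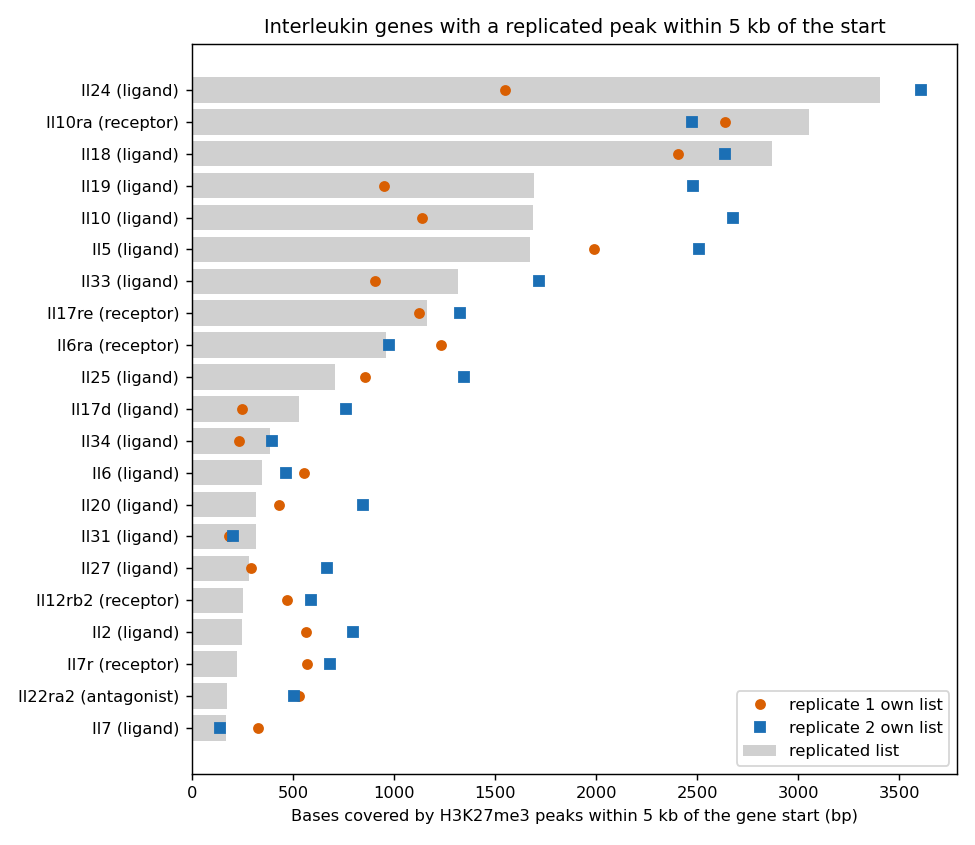
Bases covered by peaks within 5 kb of the gene start (horizontal axis, bp) for the 21 interleukin genes with a replicated peak there; grey bars are the replicated list, orange circles replicate 1 and blue squares replicate 2. Il24, Il10ra and Il18 lead in the replicated list with 3404, 3054 and 2872 bases, and the replicates lie furthest apart at Il24, with 1547 in replicate 1 and 3607 in replicate 2.

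The marking was concentrated: Il24, Il10ra, Il18, Il19 and Il10 held 58.3% of all replicated bases within 5 kb of an interleukin gene start. In 500 bp bins around the start, interleukin genes were covered over 1.06% to 5.68% of bases, against 0.5% to 1.31% for all genes. The first bin after the start had 1.48% in interleukin genes and 0.5% in all genes, and in all genes it was the lowest bin. With 82 genes, single genes made up much of any bin.

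**Figure D5:**
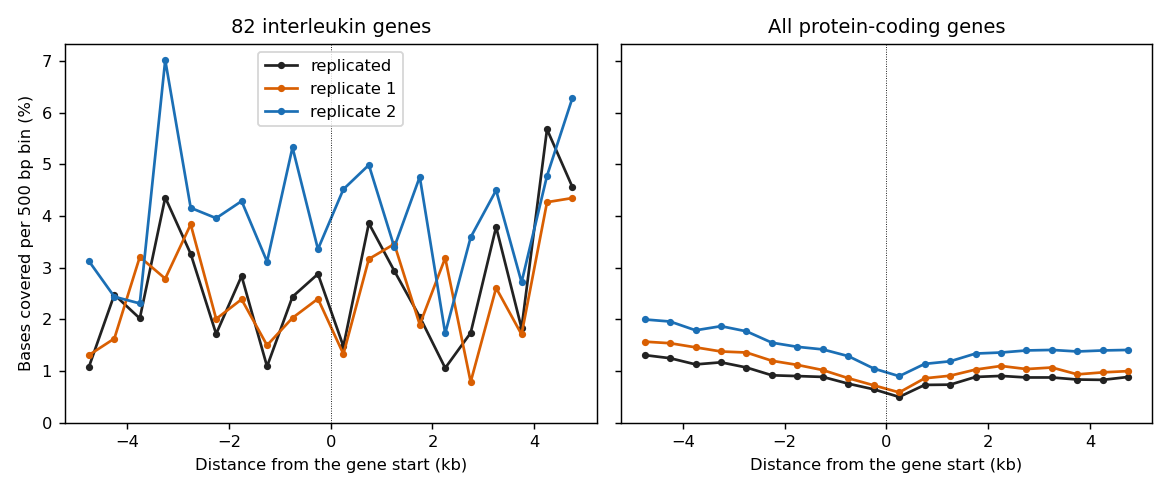
Share of bases covered by peaks (%) in 500 bp bins from 5 kb before to 5 kb after the gene start, for the 82 interleukin genes (left) and all 21911 protein-coding genes (right); lines are the replicated list and each replicate's own list. The interleukin genes run between 1.06% and 5.68% in the replicated list, and all genes between 0.5% and 1.31% with the lowest bin just after the start.

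Of 62 other genes of cytokine signalling, 12 had a replicated peak in the body (19.4%, against 11.5% of all genes) and 6 at the start (9.68%, against 3%). They were Clcf1, a cytokine that signals through gp130, with 1601 bases within 1 kb of the start (1609 in replicate 1 and 1193 in replicate 2), Csf1, the macrophage growth factor, with 875 (664 and 838 in replicates 1 and 2), Tollip, an adaptor of TIR signalling, with 803 (352 and 671), Sigirr, an inhibitory receptor with a TIR domain, with 83 (135 and 0), the CSF1 receptor Csf1r with 449 (506 and 674), and Ebi3 with 391 (287 and 474). Ebi3 encodes the partner of the Il27 product in IL-27, so both subunit genes of this cytokine had a replicated start peak, as had both Il10 and Il10ra. Most partners of the start-marked genes had none, among them Il27ra, Il18r1, Il1rl1 (the receptor for IL-33), Il17rb and Il17ra (for IL-25), Il6 and Il7. Il34, the other ligand of the CSF1 receptor, had 940 body bases and no replicated start peak. None of the JAK genes (Jak1, Jak2, Jak3 and Tyk2) were marked at the start in the replicated list. With 3% of all genes so marked, a count over so few genes says little. Socs3, a feedback inhibitor of gp130 signalling, had 2700 bases within 5 kb (2093 and 2204 in replicates 1 and 2) but 0 within 1 kb.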

How the data were processed

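The deposited files are peak lists of H3K27me3 ChIP-seq in 2 replicates. Per the deposited text descriptions, peaks of each replicate come from its own alignments to mm10, set against 1 shared control alignment, the pooled list on both replicates' alignments together, while the replicated list draws on these 3 lists. For the peak caller, the aligner and the rule behind replicated peaks, the answer is not given in the sources used here. Each peak carries a signal value, deposited by the authors as a score whose definition is not stated, and a −log10 p-value and −log10 q-value, also deposited. The mm9 list was not used, since its coordinates cannot be set beside mm10 genes.

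Peaks were compared with GENCODE mouse release 21 genes and the GRCm38 sequence; all mm10 peaks lay within its chromosome lengths. Where a symbol occurred repeatedly, its longest gene was used. Covered bases came from the union of peaks. Clusters were interleukin genes within 500 kb of each other. The interleukin genes, their roles and the lists were chosen with earlier results of these data known. Named in full were genes with a start peak in any list, the 12 with the most bases within 5 kb or the largest share of the body covered, the 5 with the most body bases, and genes of clusters with a peak. Genes outside this rule were named after their values were seen. The coverage code recovered known overlaps in simulated data. Alternatives are in the closing section. Software was Python 3.11.15, numpy 2.4.6, scipy 1.17.1, pysam 0.24.0 and matplotlib 3.10.9.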

Additional observations from a re-analysis of the deposited data

How the results depend on the processing

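No paired analysis was possible because the series holds 1 group. The counts at the start depended most on peak strength. With −log10 q of at least 2 there were 2 interleukin genes with a start peak (2.44%, against 0.589% of all genes), Il6ra, and Il18 by 5 bases. They were 1 ligand and 1 receptor, and 1 signalling gene also kept a start peak. Body peaks remained in 5 interleukin genes (6.1%, against 3.35% of all genes), 2 ligands and 3 receptors. A peak remained in 3 of 13 clusters, against 10 in the replicated list. Of the body bases 0.0702% were covered, below the 0.099% of all genes. Keeping replicated peaks in the upper 50% of signal values gave 3 signalling genes at the start (4.84%, against 1.94% of all genes). Body peaks were then left in 19 interleukin genes (23.2%), 7 of them receptors (17.5% of receptors), against 8.7% of all genes. The pooled list gave 5 receptors at the start (12.5%, against 4.48% of all genes) and 0.962% of body bases (0.762% in all genes). With the list of 1 replicate alone, start counts ran from 12 to 19 for interleukin genes, 7 to 13 for ligands, 5 to 6 for receptors and 5 to 7 for signalling genes, body counts from 40 to 43, 18 to 19 and 21 to 23 for interleukin, ligand and receptor genes, and clusters stayed at 11. Body bases ran from 0.802% to 1.19%, where all genes ran from 0.633% to 0.943%. Without Il1rapl1 and Il1rapl2, an alternative chosen after seeing the data, body bases came to 1.43%, against 0.631% with them. The median distance to a peak, also added later, was 14281.5 bp in the pooled list and 7593 to 12437 bp in single replicates. Over all genes it was 53405.5 bp and 32069.5 to 46350 bp. Other windows, overlaps, transcript starts (where Il31 was added) and a 200 kb cluster distance moved counts by at most 1.5 times (receptors at the start came to 2 with at least 200 bp covered, against 3). Of 21 named genes, bases within 5 kb were higher in the pooled list for 12 and lower for 0, and with −log10 q of at least 2 they fell to 0 for 12, beside 5 already at 0. Why counts moved was not tested. Depth is unknown, and single-gene overlaps as short as the 23 bases at Il33 cannot be told from the edge of a call.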

Other observations

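Summed over the interleukin genes, 2.06% of exon bases and 0.554% of intron bases were covered in the replicated list, where all protein-coding genes had 0.502% and 0.525%. Without the long introns of Il1rapl1 and Il1rapl2 the introns came to 1.33% and the exons to 2.18%. In replicate 1 the exons of interleukin genes had 2.23% and in replicate 2 they had 3.34%. The sums rest on few genes and do not describe each gene. Of the 30 genes with a replicated body peak 12 had intron bases alone covered. The other 18 had exon bases covered, the most at Il10ra (929 bases), Il6 (702), Il10 (607, or 46.3% of its exon bases) and Il2ra (587). Il21, the cytokine of follicular helper T cells, had its 221 covered bases all in exons.

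The observed over expected CG ratio in the 2 kb around the start averaged 0.31 ± 0.26 (SD, n = 10 genes) for those with a replicated start peak, 0.283 ± 0.168 (SD, n = 72) for the other interleukin genes and 0.452 ± 0.251 (SD, n = 21911) for all genes. The medians of the 2 interleukin sets ran the other way, at 0.203 with a start peak and 0.233 without. All genes with a replicated start peak averaged 0.336 ± 0.212 (SD, n = 658). Il17d, with 0.91, had the highest value of the 82. Annotated repeats made up 15.9% of the bases of the 130 replicated peaks at interleukin genes, 19.6% of those of all replicated peaks and 36.4% of the genome. Outside the genes themselves, the 77888 bp between Il22ra2 and Il20ra on chromosome 10 were covered over 2.92% (2.27% in replicate 1 and 5.29% in replicate 2), against 0.301% of that chromosome.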
